A study of Mus musculus with 6 samples.

Results

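The comparison is between 2 of the 6 arrays of the series: the array of a mouse lacking both reelin receptors (labelled APOER2-VLDLR KO, called the double knockout) and the wild-type (WT) array of the same cross. They were taken by their genotype labels, and all probe sets entered. The Apoer2 knockout and Vldlr knockout arrays come from that cross too, a mating of mice carrying 1 altered copy of each receptor gene, while the Dab1 knockout and Reln knockout arrays come from separate matings. Every array was made from total RNA of a single frontal cortical lobe of an untreated mouse 21 days old, on a mixed C57BL/6 and 129 background. The labels give neither the deleted part of any gene nor the number of animals per genotype beyond 1 array each. With 1 array a genotype there is no replicate of either array, so no test was possible and every value below describes these 2 arrays. The other 4 arrays serve as a measure of spread, and since each has a genotype of its own, that spread holds genotype differences as well as differences between samples.

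Reelin is a large secreted protein that tells migrating neurons where to stop. It binds 2 receptors of the low-density lipoprotein (LDL) receptor family, APOER2 (gene symbol Lrp8) and VLDLR, and both pass the signal to the adaptor DAB1 inside the cell. Mice without reelin, without DAB1 or without both receptors share the reeler phenotype, with disordered cortical layers and a small, poorly folded cerebellum that holds few granule cells, while mice lacking 1 receptor are milder.

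The deposited values are MAS5 signals, an array brightness on a linear scale, and differences are given on the scale log2(signal + 28), where a difference of 1 is 2-fold. Median signals were 88.9 on the double knockout array and 92.2 on the WT array, within the 86.5 to 92.3 of all 6 arrays. The highest of 27 bacterial control probe sets, which match no mouse gene, read 31.2 on the double knockout and 35.2 on the WT array. A signal at or below it is only a bound. Folds against that bound are ratios of signals, while all other folds are on the log2(signal + 28) scale and are smaller than ratios of signals. The 5'-to-3' control ratio was 1.40 on the double knockout and 1.41 on the WT array for Gapdh, and 0.688 on the double knockout and 0.753 on the WT array for Actb. Both arrays come from animals labelled male, yet Xist, the RNA of X inactivation in females, read 4006.0 on the double knockout and 3498.1 on the WT array, and Y-linked Eif2s3y read 7.7 on the double knockout and 7.1 on the WT array, against 367.5 on the Apoer2 knockout array. The tissue label was met for the cortex: Slc17a7, a vesicular glutamate transporter of cortical neurons, read 3699.4 on the double knockout and 3496.5 on the WT array. Genes from outside the frontal lobe also gave strong signal on both: Pcp2 of Purkinje cells in the cerebellum read 1828.5 on the double knockout and 2335.7 on the WT array, hypothalamic Oxt (oxytocin) read 1044.5 on the double knockout and 759.9 on the WT array, and Ttr (transthyretin, from choroid plexus) read 6872.6 on the double knockout and 7724.2 on the WT array. How much of each region entered each sample cannot be told from the labels.

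Both receptor transcripts were lower at the probe sets that carry signal. At the Lrp8 probe set used for the gene, the signal was 13.7 on the double knockout array, 370.1 on the Dab1, 342.4 on the Reln, 379.8 on the Vldlr and 4.2 on the Apoer2 knockout array, against 357.8 on the WT array. Taking the bacterial controls as the floor, the double knockout was at least 11.5-fold lower than WT. The other bright Lrp8 probe set read 4.8 on the double knockout and 304.8 on the WT array, and a dim one differed by only -0.48. Only the 2 arrays that lack APOER2 were low here.

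Vldlr was lower by less. Its probe set read 185.6 on the double knockout, 482.9 on the Dab1, 357.6 on the Reln, 187.3 on the Vldlr and 491.7 on the Apoer2 knockout array, against 551.6 on the WT array, a log2 difference of -1.44. All 6 Vldlr probe sets were lower on the double knockout array, by -0.68 to -1.82. The used probe set read almost the same on both arrays that lack VLDLR. Reln itself read 1498.3 on the double knockout and 1669.0 on the WT array, and Dab1 read 516.4 on the double knockout and 576.2 on the WT array, each a log2 difference of -0.15. Reelin and its adaptor therefore differed little at their brightest probe sets, and the 5 Dab1 probe sets lay between -0.33 and 0.06.

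Genes beside a targeted locus can differ between mice of a mixed background. Among the 20 kept genes on each side of Lrp8, 0 of 40 were 2-fold apart and the median log2 difference was 0.03, from -0.54 at Cc2d1b to 0.81 at Orc1. Around Vldlr, 0 of 40 were 2-fold apart too, with a median of -0.01, from -0.60 at Gldc to 0.89 at Rorb.

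Of 45101 probe sets, 497 (1.1%) were higher by 2-fold or more and 650 (1.44%) lower by 2-fold or more on the double knockout array than on the WT array, 1147 (2.54%) in all. Most of these are dim. The double knockout signal was at or below the bacterial controls in 440 of them, the WT signal in 406 and both in 4, which leaves 297 with both signals above. In 4 equal bins of mean signal, the dimmest first, 2.39%, 5.3%, 1.78% and 0.701% of probe sets were 2-fold apart. Of the 1147, 820 name 1 gene and 327 do not.

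Gene by gene, 11499 of 18194 genes were kept because their brightest probe set averaged 89.0 or more, 89.0 being the median over probe sets. On the double knockout array 39 of these (0.339%) were higher by 2-fold or more and 68 (0.591%) lower by 2-fold or more. That is 107 (0.931%) in all. By any amount 6031 were higher and 5460 lower, and counts of higher and lower genes in lists are read against these. The median difference over all kept genes was 0.02, but it varied with brightness: it was -0.02 for the 7028 genes with a mean signal under 500, 0.02 for the 2384 from 500 to 1000, 0.07 for the 1316 from 1000 to 2000 and 0.17 for the 771 above 2000, of which 645 were higher on the double knockout array. Small shifts of lists of bright genes are read against that 0.17. Nearest the threshold, Asb16 at 1.009 and Eml1 at -1.003 were just inside and Zfp874a at 0.998 and Trmt2b at -0.997 just outside. Across genes, which are not replicates, Pearson's r of log2 signals was 0.974 between the 2 arrays.

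A count of this size also arises between other genotypes. The 6 pairs of the other 4 arrays had 79 to 222 genes 2-fold apart, with the Vldlr and Apoer2 knockout arrays closest at 79 and the Vldlr and Reln knockout arrays farthest at 222. The 107 genes of the double knockout and WT pair fall inside that range. Against the other mutants, the double knockout array had 83 genes 2-fold apart from the Dab1, 88 from the Vldlr, 90 from the Apoer2 and 132 from the Reln knockout array.

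**Figure D1:**
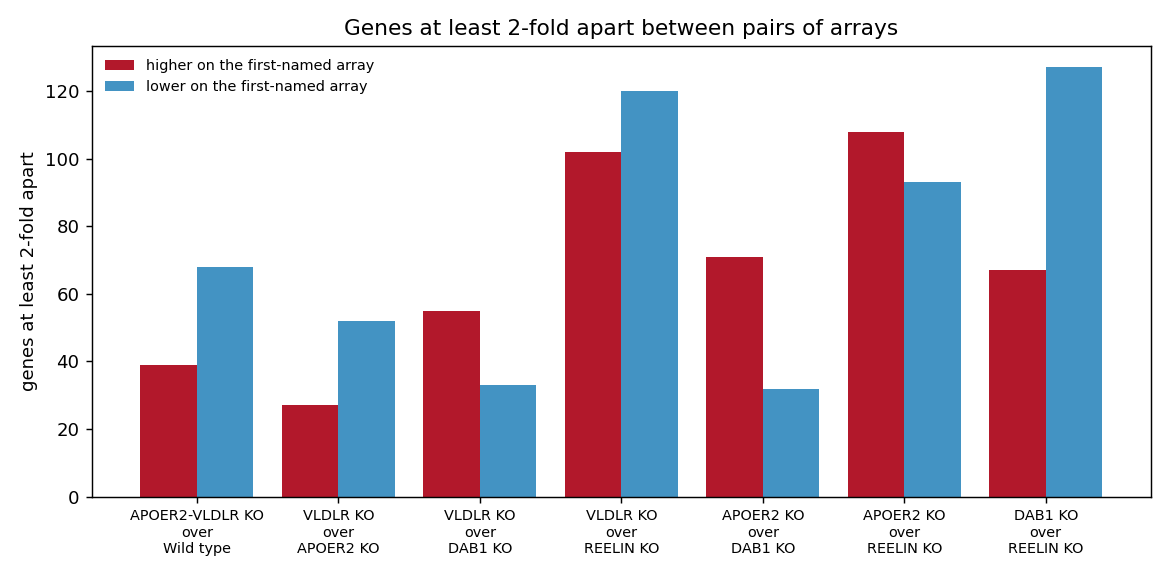
Genes at least 2-fold apart between pairs of arrays, out of 11499 kept genes (y axis, number of genes), with the double knockout and WT pair on the left and the 6 pairs of the other 4 arrays beside it. Red bars count genes higher on the first-named array and blue bars genes lower on it. The pair of interest has 39 higher and 68 lower, a total inside the 79 to 222 of the other pairs.

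The other 4 arrays show which of the 2 arrays lay outside their range. Of the 39 higher genes, both arrays lay outside the range of the other 4, on opposite sides, for 9, only the double knockout for 4, only the WT for 20 and neither for 6. Of the 68 lower genes, the same split was 27, 14, 14 and 13. So the higher genes had the WT outside (29 of 39) more often than the double knockout (13 of 39). Of the 68 lower genes 41 had the double knockout outside and 41 had the WT outside. Over all kept genes the WT was lowest of the 6 arrays at 2262 and highest at 2088. The double knockout was highest at 1952 and lowest at 1385. Genes picked by the difference of these 2 arrays favour such positions. As the other 4 arrays are all mutants, a WT value outside them cannot be told from a difference shared by all mutants. The difference was larger than the whole range of the other 4 arrays for 30 of the 39 and 46 of the 68.

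**Figure D2:**
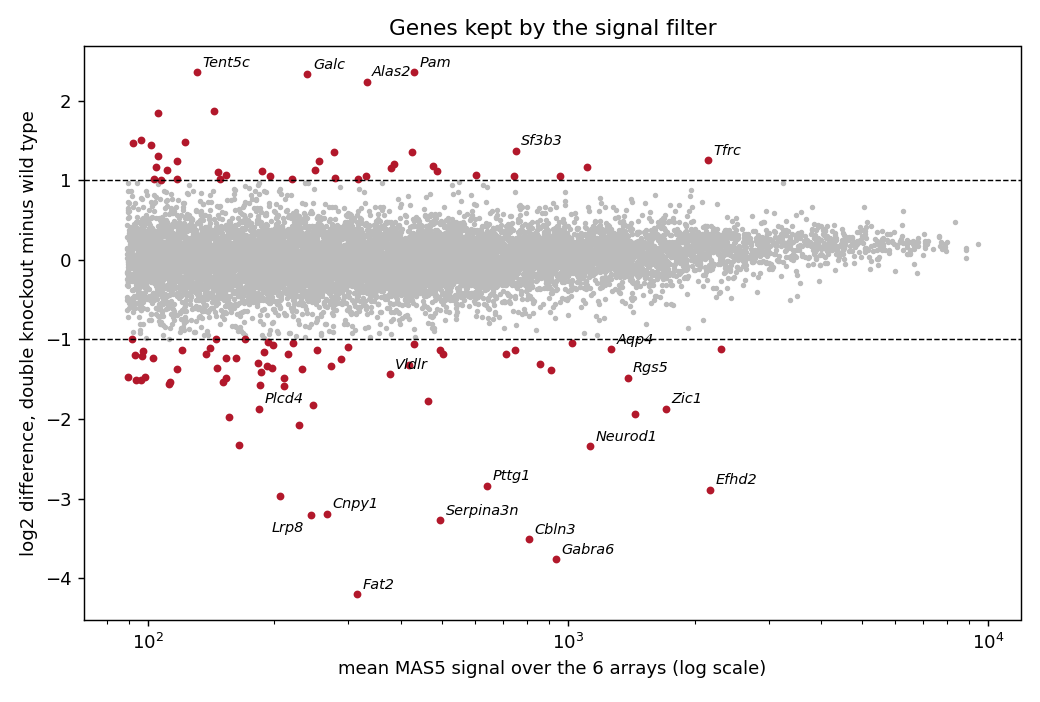
Log2 difference of the double knockout minus WT (y axis) against mean MAS5 signal over the 6 arrays (x axis, log scale), 1 point per kept gene. Red points are the 107 genes at least 2-fold apart, beyond the dashed lines, and named genes are described in the text. Gabra6 at -3.76 lies farther from 0 than the highest points, Pam and Tent5c at 2.36, and the Fat2, Lrp8 and Tmem87a points rest on double knockout signals below the bacterial controls, so their depth is only a bound.

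The 3 most strongly lower genes are known from cerebellar granule cells. Granule cells are the small excitatory neurons that fill the inner layer of the cerebellum and send out the parallel fibres. Fat2, a giant cadherin of granule cells, read 8.4 on the double knockout, 36.4 on the Dab1, 93.3 on the Reln, 549.1 on the Vldlr and 560.4 on the Apoer2 knockout array, against 642.5 on the WT array. Gabra6, a GABA-A receptor subunit made by granule cells, read 106.6 on the double knockout, 185.7 on the Dab1, 251.5 on the Reln, 1247.6 on the Vldlr and 2014.9 on the Apoer2 knockout array, against 1797.0 on the WT array. Cbln3, a secreted cerebellin that forms complexes with CBLN1, read 114.5 on the double knockout, 191.4 on the Dab1, 286.4 on the Reln, 1137.8 on the Vldlr and 1532.0 on the Apoer2 knockout array, against 1593.4 on the WT array. The double knockout was the lowest of the 6 arrays at all 3 genes, the Dab1 and Reln knockout arrays came next, and the single receptor knockouts lay with WT, with no overlap. Against WT, Fat2 was at least 20.6-fold lower with the bacterial controls as the floor, Gabra6 was 13.6-fold lower and Cbln3 11.4-fold lower. In a bulk sample, fewer cells of a type, less RNA per cell and less cerebellum taken into the sample cannot be told apart.

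The promoters of these 3 genes are shown because they head the lower side together. They run from 250 bases before the start site to 50 after it, 5' to 3' on the gene's strand, from RefSeq on GRCm38.p6. Each was searched on both strands for CAGATG, an E-box that the granule cell transcription factor NEUROD1 is known to bind, read as CATCTG on the other strand, and none of these 3 windows holds those letters. Over all promoter windows of the same length 17.2% (5635 of 32851) hold it, and 2 of the 13 windows of 12 kept granule cell genes do (15.4%), those of Neurod2 and Nfia.
Fat2, chr11:55312208-55312507, minus strand: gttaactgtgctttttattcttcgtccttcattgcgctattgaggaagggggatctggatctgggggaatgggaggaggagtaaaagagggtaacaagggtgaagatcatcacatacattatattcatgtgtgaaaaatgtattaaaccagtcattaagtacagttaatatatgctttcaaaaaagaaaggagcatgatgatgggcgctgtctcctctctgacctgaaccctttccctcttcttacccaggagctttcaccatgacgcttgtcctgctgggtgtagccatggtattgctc
Gabra6, chr11:42321023-42321322, minus strand: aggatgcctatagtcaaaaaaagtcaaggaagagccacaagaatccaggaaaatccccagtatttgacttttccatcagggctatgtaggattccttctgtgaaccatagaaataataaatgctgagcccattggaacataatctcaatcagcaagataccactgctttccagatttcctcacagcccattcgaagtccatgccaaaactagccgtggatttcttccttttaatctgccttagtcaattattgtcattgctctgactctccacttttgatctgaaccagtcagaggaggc
Cbln3, chr14:55884207-55884506, minus strand: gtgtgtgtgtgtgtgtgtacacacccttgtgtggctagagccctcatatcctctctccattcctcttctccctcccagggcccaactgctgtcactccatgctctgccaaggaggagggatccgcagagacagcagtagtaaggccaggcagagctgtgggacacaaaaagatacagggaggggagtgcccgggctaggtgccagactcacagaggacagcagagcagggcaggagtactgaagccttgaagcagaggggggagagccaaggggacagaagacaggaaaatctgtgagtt

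Transcription factors and receptors of the same cells were lower too, with other genes such as Serpina3n, Tmem87a and Efhd2 ranked in between. Neurod1, which drives granule neuron differentiation, read 382.1 on the double knockout, 551.0 on the Dab1, 416.9 on the Reln, 1272.4 on the Vldlr and 2098.0 on the Apoer2 knockout array, against 2044.7 on the WT array (log2 difference -2.34). Zic1, a zinc finger factor of granule cells and their progenitors, read 661.4 on the double knockout, 1068.4 on the Dab1, 754.7 on the Reln, 2275.6 on the Vldlr and 2984.5 on the Apoer2 knockout array, against 2495.0 on the WT array (-1.87). Cbln1, the cerebellin that bridges parallel fibres and Purkinje cells, read 598.2 on the double knockout, 906.2 on the Dab1, 845.1 on the Reln, 1966.0 on the Vldlr and 1978.2 on the Apoer2 knockout array, against 2379.5 on the WT array (-1.94). At these 3 genes too the double knockout, Dab1 and Reln knockout arrays lay below the other 3. En2, an engrailed homeobox factor of the midbrain and hindbrain, read 74.4 on the double knockout and 402.1 on the WT array, and Pax6, a paired-box factor of granule cell progenitors and other neurons, 88.9 on the double knockout and 245.3 on the WT array. Cnpy1, a gene of the midbrain-hindbrain boundary, read 32.2 on the double knockout and 522.0 on the WT array. Grm4, a presynaptic glutamate receptor of parallel fibres, read 544.1 on the double knockout and 1386.9 on the WT array, and Grin2c, the NMDA receptor subunit of mature granule cells, 302.7 on the double knockout and 722.0 on the WT array.

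**Figure D3:**
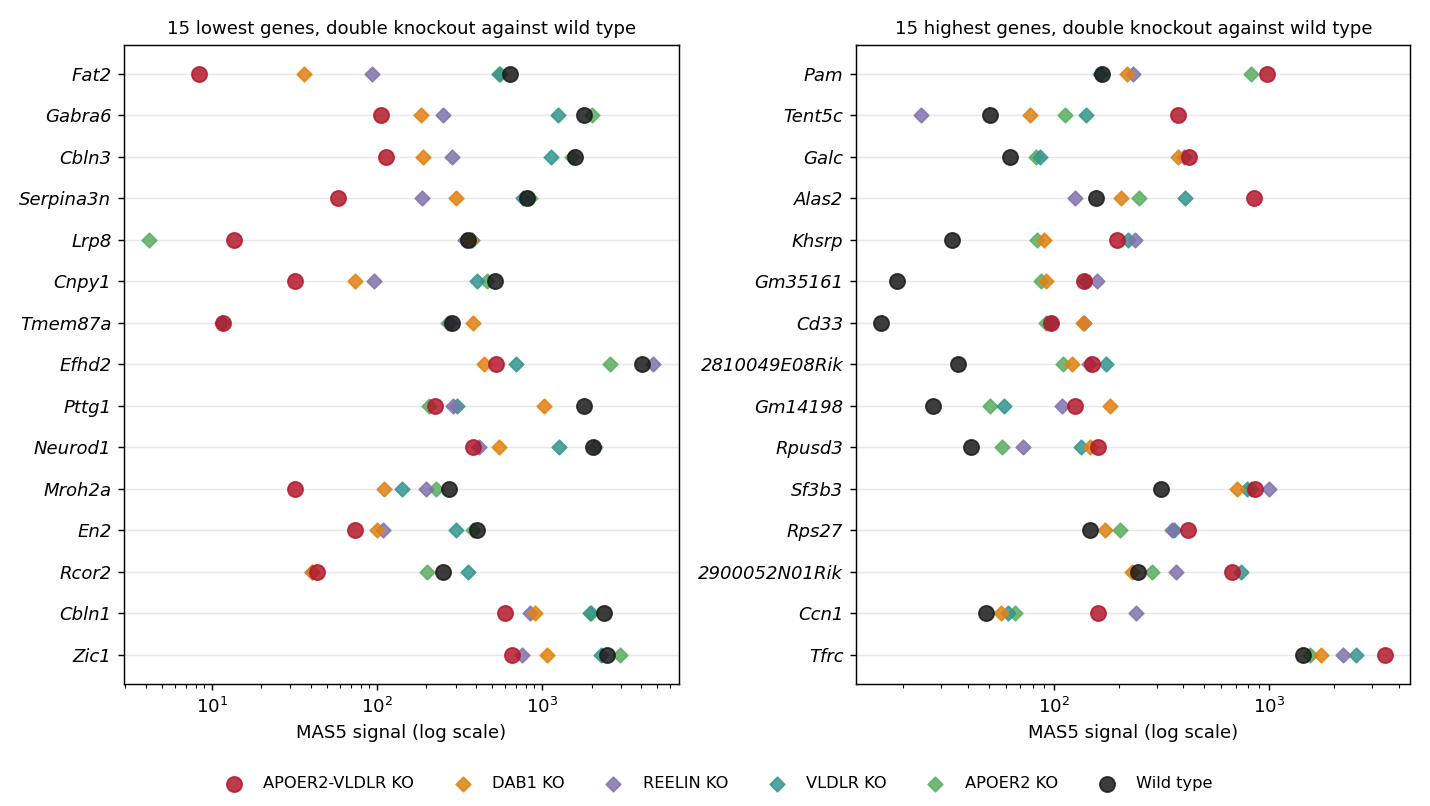
MAS5 signal (x axis, log scale) on each of the 6 arrays for the 15 genes with the lowest and the 15 with the highest difference between the double knockout (red circles) and WT (black circles). Diamonds are the other 4 arrays. At Fat2, Gabra6, Cbln3, Cnpy1, Neurod1, En2, Cbln1 and Zic1 the Dab1 and Reln knockout arrays lie below the single receptor knockouts and WT, as the double knockout does, and at Cd33, Gm35161 and Sf3b3 the WT sits apart from all 5 others.

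As a list, 16 of 17 kept granule cell genes were lower on the double knockout array, against 5460 of all 11499 kept genes. At least 2-fold lower were 10 of them, against 0.591% of all kept genes. The list holds the genes named above and was chosen with earlier results of these data known, so these counts describe it and do not test it. The list's median log2 difference was -1.23, against 0.02 over all kept genes, and Neurod2, also a gene of forebrain neurons, was the only member above 0, at 0.09. Its members' summed signal was 7714 on the double knockout, 9222 on the Dab1, 7661 on the Reln, 17040 on the Vldlr and 20540 on the Apoer2 knockout array, against 20313 on the WT array. The sum on the double knockout array was close to that on the Reln knockout array. Other cells of the cerebellum differed by less. All 11 Bergmann glia genes, of the radial astrocytes that guide granule cells, were lower, with a median of -0.50 and 1 of them 2-fold: Gdf10, a growth factor of the BMP family, read 199.4 on the double knockout, 330.2 on the Dab1, 199.1 on the Reln, 658.0 on the Vldlr and 579.3 on the Apoer2 knockout array, against 541.7 on the WT array. Of 11 Purkinje cell genes, 9 were lower and 0 reached 2-fold, with a median of -0.10. The lowest of them was Car8, a carbonic anhydrase-related protein of Purkinje cells, at 1262.1 on the double knockout and 2299.6 on the WT array. The Purkinje median was -0.24 after quantile normalization and -0.27 against the mean of WT and both single receptor knockouts. The Purkinje level minus the mean of the other 4 arrays was -0.21 on the double knockout array, outside their -0.15 to 0.07. On the WT array it was 0.03, inside that range. The double knockout was lowest of the 6 arrays at 6 of the 11 genes, against 1385 of all 11499 kept genes. Granule progenitor and hedgehog response genes had a median of -0.20 over 11 genes, 0 of them 2-fold apart. The lowest were Hhip (hedgehog-interacting protein) at -0.87 and Boc (a hedgehog co-receptor) at -0.68, while 4 were above 0, by at most 0.17. With the mean over probe sets the median was -0.02. The list's level minus the mean of the other 4 arrays was -0.05 on the double knockout array, inside their -0.20 to 0.14. On the WT array it was 0.17, outside that range. The 3 kept genes of the midbrain-hindbrain boundary were Cnpy1 at -3.19, En2 at -2.07 and Pax5 at 0.10. With no signal filter this list held 9 genes and its median was -0.05. The members that the filter dropped had mean signals of 4.0 to 57.8 and ran from -0.47 at Wnt1 to 0.47 at Gbx2. Cnpy1 and En2 are therefore read as single genes and not as a shift of the list.

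**Figure D4:**
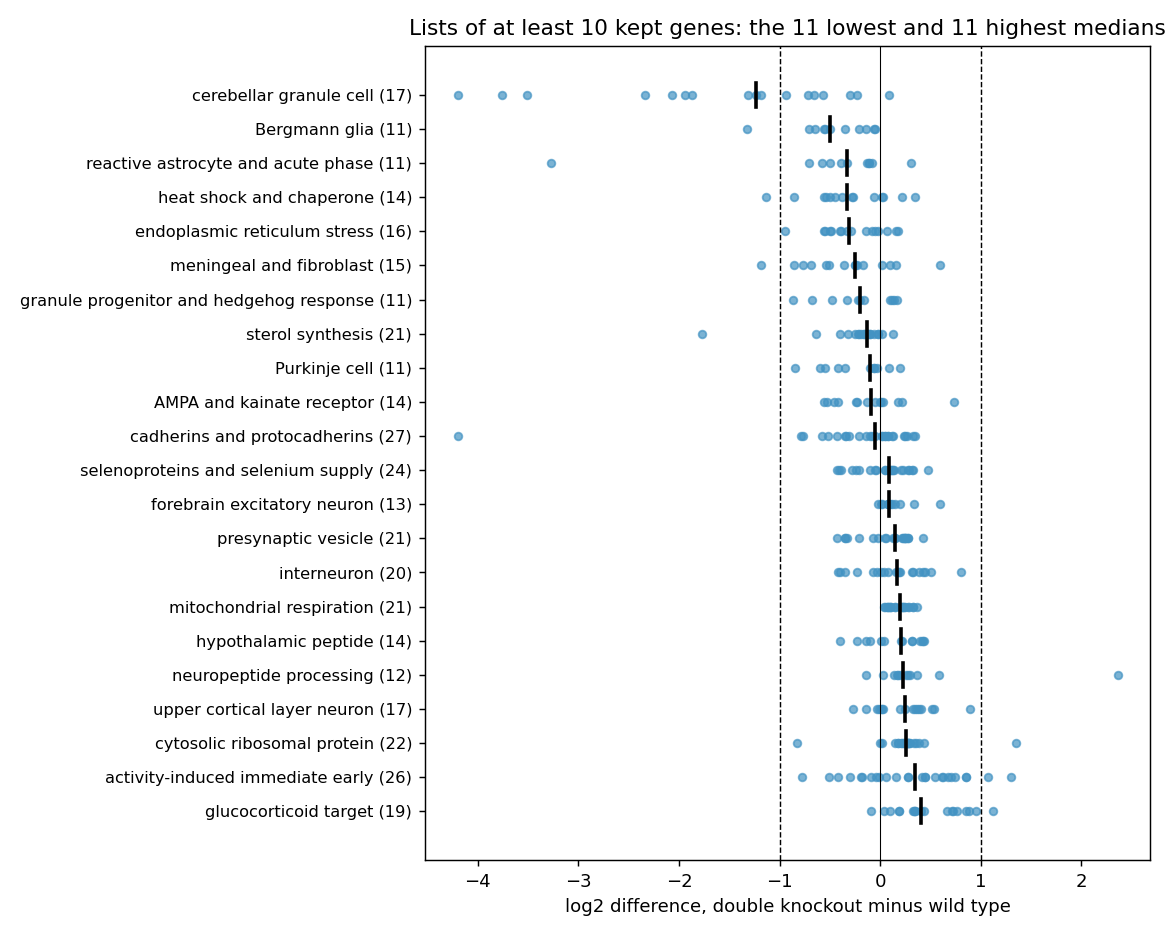
Log2 difference of the double knockout minus WT (x axis) for each kept member (dots) of the 22 gene lists with the lowest or highest medians (black bars) among lists of at least 10 kept genes, with the number of kept genes in brackets. Dashed lines mark 2-fold. Among these lists, cerebellar granule cell genes have the lowest median, -1.23, and glucocorticoid targets the highest, 0.41.

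At 7 kept genes the double knockout array stood at least 2-fold outside all 5 other arrays, 5 below (0.0435% of kept genes) and 2 above (0.0174%). Serpina3n, a secreted protease inhibitor that astrocytes make when reactive, read 58.7 on the double knockout, 302.1 on the Dab1, 187.1 on the Reln, 770.8 on the Vldlr and 847.3 on the Apoer2 knockout array, against 807.9 on the WT array (9.64-fold lower than WT). Plcd4, a phospholipase C, read 50.7 on the double knockout, 230.0 on the Dab1, 186.4 on the Reln, 177.5 on the Vldlr and 199.9 on the Apoer2 knockout array, against 259.3 on the WT array. The other 4 arrays were close together at Plcd4, with an SD of 0.14 against a log2 difference of -1.87, and at Serpina3n they were spread, with an SD of 0.99. Cthrc1, a secreted collagen triple helix repeat protein, read 55.2 on the double knockout and 222.8 on the WT array, with the others at 175.4 to 337.2. Mroh2a read 32.1 on the double knockout and 275.0 on the WT array, with the others at 110.3 to 227.1, and Tigd3 read 22.1 on the double knockout and 86.3 on the WT array, with the others at 79.3 to 129.0.

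The 2 genes far above all other arrays are known from red cell precursors. Alas2, the first enzyme of haem synthesis in erythroid cells, read 848.1 on the double knockout, 205.9 on the Dab1, 125.3 on the Reln, 406.1 on the Vldlr and 247.9 on the Apoer2 knockout array, against 157.3 on the WT array. Tent5c, a poly(A) polymerase that is abundant in erythroblasts, read 376.4 on the double knockout, 77.8 on the Dab1, 24.2 on the Reln, 141.8 on the Vldlr and 112.2 on the Apoer2 knockout array, against 50.8 on the WT array. Both were thus highest on the double knockout and next on the Vldlr knockout array, 4.73-fold and 5.13-fold higher than WT. Tfrc, the transferrin receptor that brings iron into cells, read 3464.7 on the double knockout, 1734.1 on the Dab1, 2193.2 on the Reln, 2528.4 on the Vldlr and 1547.5 on the Apoer2 knockout array, against 1438.3 on the WT array. Its 6 probe sets differed by 0.96 to 1.84, all in the same direction. The other 4 of the 6 kept erythroid genes differed by less at the probe sets used. Hbb-b2, an adult beta-globin, read 114.5 on the double knockout and 99.1 on the WT array at the probe set used and 127.4 on the double knockout and 42.8 on the WT array at another, and near-identical globin genes may share these signals. Bpgm (a red cell enzyme of glycolysis) differed by 0.32, Fech, the last enzyme of haem synthesis, by -0.19 and Car2, a carbonic anhydrase also found in oligodendrocytes, by -0.76. The list's median was 0.24, with 2 of 6 genes 2-fold higher, and its summed signal was 4944 on the double knockout and 5243 on the WT array. What part blood left in the tissue had in these values was not tested.

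The Alas2 promoter, from RefSeq on GRCm38.p6, is printed with its match to AGATAA, a motif of erythroid GATA factors, in capitals. It was searched on both strands, and the match reads TTATCT on the printed strand, starting 86 bases before the start site. AGATAA shares the run AGAT with the E-box above, and 11.2% of all promoter windows (3672 of 32851) hold it. The match describes the letters of this window.
Alas2, chrX:150547167-150547466, plus strand: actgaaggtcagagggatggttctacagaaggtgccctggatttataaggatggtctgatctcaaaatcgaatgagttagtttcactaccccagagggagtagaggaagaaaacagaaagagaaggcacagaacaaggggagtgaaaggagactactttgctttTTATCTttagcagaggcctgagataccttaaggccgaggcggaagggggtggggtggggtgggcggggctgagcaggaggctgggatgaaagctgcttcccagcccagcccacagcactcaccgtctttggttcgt

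Below 2-fold, the genes farthest above the range of the other 5 arrays included Herc6, an interferon-induced ubiquitin ligase family member, at 886.7 on the double knockout and 447.2 on the WT array, with the others at 376.9 to 551.5. Zar1, an oocyte factor, read 227.0 on the double knockout and 117.2 on the WT array, Hebp1, a haem-binding protein, 309.8 on the double knockout and 159.6 on the WT array, and Klf2, a transcription factor of endothelium and other cells, 303.3 on the double knockout and 188.7 on the WT array.

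Some large differences were shared with arrays of other mutants. Pam, the enzyme that amidates neuropeptides, read 975.2 on the double knockout, 219.4 on the Dab1, 232.3 on the Reln, 163.7 on the Vldlr and 826.3 on the Apoer2 knockout array, against 167.4 on the WT array. Tmem87a, a transmembrane protein of the Golgi, read 11.8 on the double knockout, 381.2 on the Dab1, 278.0 on the Reln, 11.6 on the Vldlr and 268.5 on the Apoer2 knockout array, against 284.7 on the WT array. Pam was therefore high on the double and Apoer2 knockout arrays and Tmem87a low on the double and Vldlr knockout arrays, by at least 9.12-fold against WT with the bacterial controls as the floor. Efhd2, a calcium-binding protein, had its high values on the Reln (4735.2), Apoer2 (2587.6) and WT (4062.9) arrays, against 525.6 on the double knockout array. Its other probe set differed by -0.73 where the used one differed by -2.89. Rcor2, a corepressor, read 43.4 on the double knockout, 40.7 on the Dab1, 40.6 on the Reln, 359.4 on the Vldlr and 201.5 on the Apoer2 knockout array, against 250.9 on the WT array, which is the split of arrays seen at the granule cell genes. Galc, a lysosomal galactosylceramidase that breaks down myelin lipid, read 425.3 on the double knockout, 377.0 on the Dab1, 404.6 on the Reln, 86.0 on the Vldlr and 82.3 on the Apoer2 knockout array, against 62.3 on the WT array, while another Galc probe set past the filter differed by -0.39. The double, Dab1 and Reln knockout arrays were thus high together at the probe set used.

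At other genes the WT array stood apart from the mutants. It stood at least 2-fold below all 5 others at 5 genes (0.0435%) and 2-fold above them at 0. Sf3b3, a splicing factor subunit, read 859.7 on the double knockout, 709.7 on the Dab1, 1004.2 on the Reln, 786.0 on the Vldlr and 828.0 on the Apoer2 knockout array, against 315.7 on the WT array. Cd33, a sialic acid receptor of microglia, read 96.9 on the double knockout, 92.0 to 138.4 on the other mutants and 15.8 on the WT array. Gm35161, Foxh1 (a partner of SMAD proteins) and 2810049E08Rik had the same pattern, at 138.9, 91.7 and 150.1 on the double knockout and 18.7, 26.7 and 35.8 on the WT array. On the lower side, Cryab, a small heat shock protein, read 629.3 on the double knockout, 506.3 to 730.0 on the other mutants and 1409.5 on the WT array. Pttg1, securin, read 226.4 on the double knockout, 1026.1 on the Dab1, 291.2 on the Reln, 305.6 on the Vldlr and 206.3 on the Apoer2 knockout array, against 1788.9 on the WT array. Khsrp, an RNA-binding protein of mRNA decay, read 196.6 on the double knockout and 33.6 on the WT array. The WT was its lowest array, but not 2-fold below all 5 others. Its log2 difference of 1.87 became 0.91 against the mean of WT and both single receptor knockouts. At Rps27, a ribosomal protein, both lay outside the other 4, at 421.7 on the double knockout and 148.0 on the WT array, with the others at 173.2 to 362.9.

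Of 5162 genes with several probe sets past the filter, 1 had all of them 2-fold higher, Sbsn (suprabasin, a secreted epithelial protein, 1.18 to 1.37), and 15 had all 2-fold lower. Among the 15 were Gabra6 (-3.76 to -2.99), Cbln3 (-3.51 to -3.01), Cnpy1 (3 probe sets, -3.19 to -2.02), Cbln1 (3 probe sets, -2.98 to -1.94), Zic1 (-1.93 to -1.87) and Rgs5 (4 probe sets, -1.99 to -1.47). Of the 39 genes past 2-fold that had several such probe sets, 16 had every one past 2-fold in the same direction and 4 had probe sets of both signs. Prune2, a BCH-domain protein, was the widest of the 4: the used probe set read 595.4 on the double knockout and 1599.6 on the WT array (-1.38), and another read 770.9 on the double knockout and 61.7 on the WT array (3.15).

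Outside the targeted genes, the reelin pathway differed by less than 2-fold. Of 44 kept genes of the pathway, 26 were above 0 and 18 below, with a median of 0.06, and only Lrp8 and Vldlr were 2-fold apart. Downstream of DAB1, Gsk3b, the kinase that phosphorylates tau and other targets, read 1430.2 on the double knockout and 922.3 on the WT array, with the others at 1000.5 to 1303.4. Cdk5, a kinase that acts beside reelin in neuron placement, read 1379.7 on the double knockout and 974.9 on the WT array, with the others at 1125.7 to 1278.4. Both were higher on the double knockout than on any other array, by less than 2-fold. The same held by any amount for 8 of the 44 pathway genes and for 17.0% of all kept genes. Pafah1b1, which encodes LIS1, differed by 0.35. Nectin3, an adhesion protein, was the lowest after the receptors at -0.56. Among 17 genes of the LDL receptor family and its partners the median was 0.02. There Sorl1, a sorting receptor for APP, differed by 0.57 and Lrp1, the large endocytic receptor, by -0.20.

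Lipid carriers and their handling varied in both directions. Of 12 apolipoprotein and lipid transport genes 6 were higher and 6 lower. Lcat, which esterifies cholesterol on lipoproteins, read 142.5 on the double knockout and 411.6 on the WT array and was the only one 2-fold apart. Apoe, a ligand of both receptors, read 9953.6 on the double knockout and 7112.5 on the WT array (0.48), and Apoc1 176.7 on the double knockout and 83.5 on the WT array (0.88). Of 21 sterol synthesis genes 19 were lower, with a median of -0.13, but the WT level of the list was 0.17 above the mean of the other 4 arrays, outside their -0.12 to 0.08, and the double knockout level, at -0.07, was inside it. Sc5d, sterol-C5-desaturase, read 209.3 on the double knockout, 640.6 on the Dab1, 235.9 on the Reln, 230.4 on the Vldlr and 689.1 on the Apoer2 knockout array, against 781.5 on the WT array, and its other probe sets differed by -0.76 and -0.81. Selenoproteins and selenium supply, which includes the APOER2 ligand Selenop, had a median of 0.09 over 24 genes with 0 at 2-fold, and Selenop differed by 0.28. APP processing genes had a median of 0.09 over 15 genes (0.03 after quantile normalization) with 0 at 2-fold, and galactolipid genes 0.04 over 13 with Galc the only one past 2-fold.

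Cortical neuron markers differed little in sum, although layers are disordered in reeler cortex. Of 17 upper layer genes 13 were higher, with a median of 0.25 and 0 at 2-fold. The WT level of this list was 0.15 below the mean of the other 4 arrays, outside their -0.07 to 0.08, and the median was 0.11 against the mean of WT and both single receptor knockouts and 0.06 against the median of the other 5 arrays. Rorb, a nuclear receptor of layer 4 neurons, read 312.4 on the double knockout, 236.5 on the Dab1, 249.1 on the Reln, 383.4 on the Vldlr and 149.7 on the Apoer2 knockout array, against 155.4 on the WT array, so it was also high on the Vldlr knockout array. Cux2, a homeobox factor of upper layers, read 379.5 on the double knockout and 282.4 on the WT array. Of 24 deep layer and subplate genes 12 were higher and 12 lower, with a median of 0.01. Forebrain excitatory neuron genes had a median of 0.09 over 13 (0.03 after quantile normalization), with Camk2a, a synaptic kinase, highest at 4938.5 on the double knockout and 3238.5 on the WT array. Interneuron genes had a median of 0.17 over 20 (0.07 after quantile normalization and 0.08 against the mean of WT and both single receptor knockouts), from Pvalb (parvalbumin) at -0.42 to Tac1 (a tachykinin precursor) at 0.80. Cajal-Retzius genes, of the cells that secrete reelin, had a median of -0.16 over 5, and immature neuron genes 0.06 over 12, where Neurod1 was the only one past 2-fold. None of the upper layer, deep layer, excitatory, interneuron or Cajal-Retzius genes was 2-fold apart.

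Markers of other regions differed little as groups at the kept genes. The medians were 0.04 for hippocampus (9 genes), 0.03 for striatal projection neurons (15), -0.01 for thalamus (13), 0.21 for hypothalamic peptides (14 genes, 0.03 against the median of the other 5 arrays), 0.02 for the olfactory bulb (11), 0.01 for pituitary hormones (3), -0.17 for choroid plexus (5) and 0.20 for ependymal cells (5). All 5 choroid plexus genes were lower. With no signal filter the medians were 0.20 for the olfactory bulb, -0.28 for choroid plexus and -0.11 for ependymal cells. Among the kept genes of these lists only Zic1, counted under thalamus as well as granule cells, was 2-fold apart. The sex list kept Xist alone, at 0.19.

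Among glia, astrocyte genes had a median of 0.04 over 16, yet Aqp4, the water channel of astrocyte end-feet, read 846.5 on the double knockout, 1346.5 on the Dab1, 924.1 on the Reln, 1398.4 on the Vldlr and 1207.7 on the Apoer2 knockout array, against 1871.1 on the WT array. All 3 of its probe sets were 2-fold lower. Reactive astrocyte and acute phase genes had a median of -0.33 over 11, 10 of them lower, with Serpina3n at -3.27 and the intermediate filament gene Vim at -0.71. The median was -0.12 with no signal filter, and -0.13 both against the mean of WT and the single receptor knockouts and against the median of the other 5 arrays. The mean level of the list was 0.41 below the mean of the other 4 arrays on the double knockout array, outside their own range of -0.19 to 0.24, and 0.12 above it on the WT array. Without Serpina3n it was 0.21 below on the double knockout array, against a range of -0.18 to 0.38, and 0.05 above on the WT array, with a median difference of -0.23. Myelin genes (18) had a median of 0.0 against WT, with only Galc 2-fold apart. Their mean level was 0.29 above the mean of the other 4 arrays on the double knockout array and 0.16 above it on WT. Both lay outside the -0.07 to 0.07 of those 4. The double knockout was highest of the 6 arrays at 8 of the 18, against 17.0% of all kept genes. Against the mean of WT and both single receptor knockouts the median was 0.15. Oligodendrocyte precursor genes had a median of -0.01 over 12. Microglial genes had a median of -0.04 over 13, with Cd33 and Fcrls, a microglial Fc receptor-like protein, on opposite sides. Fcrls read 76.7 on the double knockout, 218.4 on the Dab1, 95.7 on the Reln, 137.4 on the Vldlr and 126.0 on the Apoer2 knockout array, against 264.1 on the WT array.

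In vessels, Rgs5, a pericyte regulator of G-protein signalling, read 704.7 on the double knockout, 1585.9 on the Dab1, 886.2 on the Reln, 1536.9 on the Vldlr and 1579.4 on the Apoer2 knockout array, against 2019.2 on the WT array. The double knockout and Reln knockout arrays were low here. The 17 endothelium and pericyte genes had a median of 0.01 and Rgs5 was the only one 2-fold apart. Another pericyte gene, Kcnj8, a potassium channel, differed by 0.74 the other way, and Vtn (vitronectin) by 0.21. Meningeal and fibroblast genes had a median of -0.25 over 15, 11 of them lower. Col1a1, a chain of type I collagen, read 76.5 on the double knockout, 105.2 on the Dab1, 126.0 on the Reln, 123.6 on the Vldlr and 185.1 on the Apoer2 knockout array, against 208.1 on the WT array. The summed signal of the list was 11397 on the double knockout and 11903 on the WT array. Its brightest member, Ptgds, had a mean signal of 6411.6 and differed by 0.16. The list's mean level minus the mean of the other 4 arrays was -0.19 on the double knockout and 0.13 on the WT array, both outside the -0.14 to 0.10 of those 4. With the mean over probe sets the median was -0.36. The part of differing amounts of meninges in these values was not tested.

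**Figure D5:**
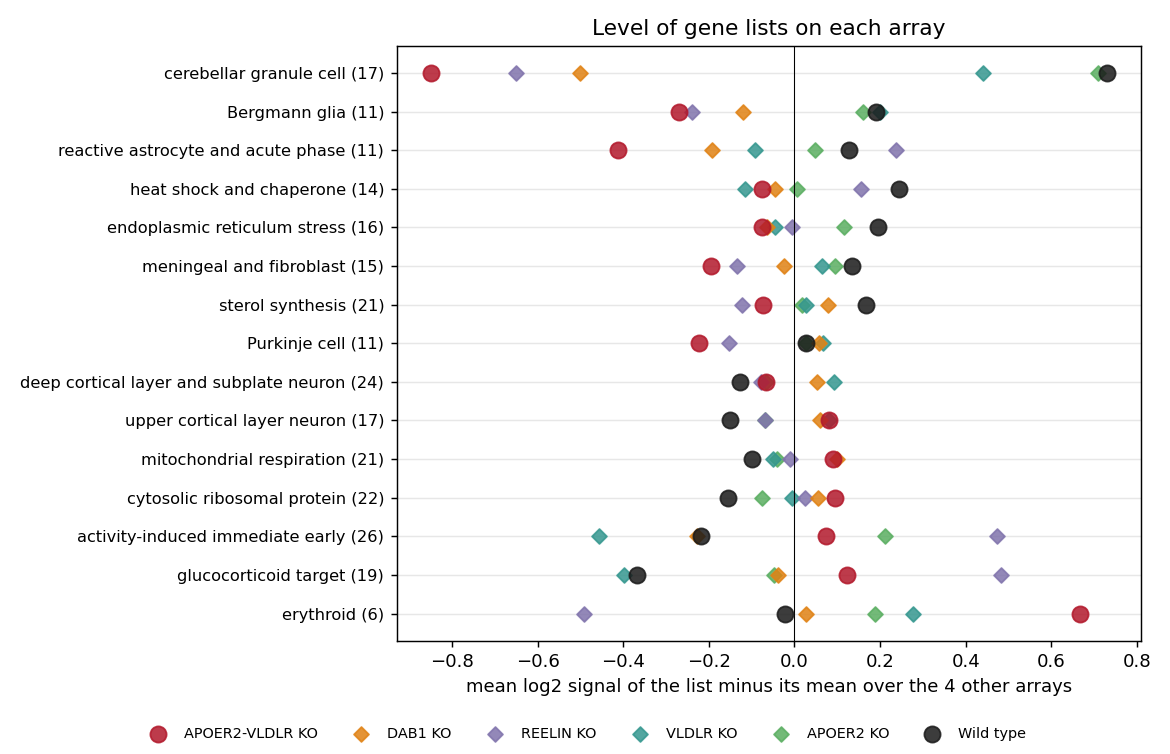
Mean log2 signal of selected gene lists on each array, minus the mean of the list over the 4 other arrays (x axis), for the double knockout (red circles), WT (black circles) and the 4 other arrays (diamonds), with the number of kept genes in brackets. Granule cell genes split the arrays into the double knockout, Reln and Dab1 below 0 and the rest above it. The double knockout is lowest for reactive astrocyte genes (-0.41) and, by less, for others such as Purkinje cell (-0.21) and meningeal genes (-0.19). It is highest for erythroid genes (0.67), a list of 6 kept genes that holds Alas2 and Tent5c. The summed signal of that list was 4944 on the double knockout and 5243 on the WT array.

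In receptor families, the members past 2-fold were those known from granule cells. Of 11 GABA-A receptor genes only Gabra6 was 2-fold apart. Gabrd, the extrasynaptic subunit that pairs with it, differed by -0.72, and the forebrain subunits Gabra2 and Gabra5 by 0.58 and 0.59, for a median of 0.07. Grin2c was the only one of 4 NMDA receptor genes and Grm4 the only one of 6 metabotropic glutamate receptor genes past 2-fold, with medians of -0.06 and -0.19. AMPA and kainate receptor genes had a median of -0.09 over 14 with 0 past 2-fold, from Gria4 at -0.56 to Grik5 at 0.73. Of 30 potassium channel genes Kcnc1, a fast delayed rectifier, was the only one past 2-fold at 480.1 on the double knockout and 1122.6 on the WT array, but 2 other probe sets past the filter differed by -0.30 and 0.23. Sodium and calcium channel genes had a median of -0.04 over 23, with Fgf14, a sodium channel partner, lowest at -0.73. Presynaptic vesicle genes had a median of 0.15 over 21 and postsynaptic scaffold genes 0.05 over 18, with 0 of either past 2-fold, and the presynaptic median was -0.01 after quantile normalization. Cadherins and protocadherins had a median of -0.05 over 27, with Fat2 alone past 2-fold, axon guidance genes 0.01 over 38, from Ntn4 (a netrin) at -0.84 to Efna3 (an ephrin) at 0.44, and Notch and Wnt pathway genes 0.05 over 21, from Fzd1 (a Wnt receptor) at -0.45 to Hes1 (a Notch target) at 0.72.

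Genes that respond to activity and to stress hormone were higher on the double knockout array than on WT but spanned a wider range among the other 4 arrays. Of 26 immediate early genes 17 were higher, with a median of 0.35 and 2 past 2-fold. Npas4, a factor switched on by neuronal activity, read 227.3 on the double knockout, 73.2 on the Dab1, 330.2 on the Reln, 40.3 on the Vldlr and 156.2 on the Apoer2 knockout array, against 93.5 on the WT array. Ccn1, a matricellular protein, read 160.5 on the double knockout, 240.6 on the Reln knockout array and 48.7 to 65.8 on the remaining 4. Of 19 glucocorticoid targets 18 were higher, with a median of 0.41, against 6031 higher of all 11499 kept genes. Plin4, a lipid droplet protein, was the only one past 2-fold, at 186.3 on the double knockout and 70.6 on the WT array, but at 537.1 on the Reln knockout array. The mean level of the glucocorticoid list was 0.13 above the mean of the other 4 arrays on the double knockout array and 0.36 below it on the WT array, both inside the -0.39 to 0.48 of those 4. Clock genes lay around 0, with 8 of 17 higher, 9 lower and 0 past 2-fold.

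In several lists the WT array lay outside the range of the other 4 arrays. Endoplasmic reticulum stress genes had a median of -0.31 over 16 and heat shock and chaperone genes -0.33 over 14, with the WT level 0.19 and 0.24 above the mean of the other 4, where the highest of those 4 were 0.11 and 0.16 above it. Against the median of the other 5 arrays these medians were -0.06 and -0.07. The lowest member of the first was Sdf2l1, an endoplasmic reticulum chaperone partner, at -0.95, and of the second Cryab. Mitochondrial respiration genes were all higher, 21 of 21, with a median of 0.20 and at most 0.37 (Ndufb8, a complex I subunit). These are among the brightest genes, whose median was 0.17, and the list's median was 0.03 after quantile normalization, which gives every array the same distribution of signals. Ribosomal protein genes had a median of 0.26 over 22, with 21 higher, Rps27 the only one past 2-fold and Rps6 at -0.83, and the median was 0.09 after quantile normalization. Cirbp, a cold-induced RNA-binding protein, read 1242.0 on the double knockout, 823.8 to 1462.1 on the other mutants and 537.0 on the WT array. Its list of 4 also held Srsf5 (0.22), Srsf2 (0.42) and Hspa8 (-0.27), the last counted under heat shock too. The list's median of 0.32 is therefore not read as one of cold-inducible genes. Neuropeptide processing genes had a median of 0.23 over 12, with Pam the only one past 2-fold. Interferon response genes had a median of -0.23 over 7, with 0 past 2-fold, from Ifit3 at -0.84 to Rsad2 at 0.87.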

How the data were processed

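Per the labels, total RNA was hybridised as biotinylated cRNA to 1 array per genotype. The deposited signal intensities, on a linear scale, were made by the authors with MAS5 in Affymetrix Expression Console, as the submitters' processing notes list these names. Tool versions and a genome build are not given in the sources used. Each array's trimmed mean (2% at each end, no controls) was 249.4 to 249.5.

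Intensities were compared as log2(signal + 28), which understates changes of dim genes. Platform annotation gave 34958 probe sets 1 gene, 932 several and 9211 none, and 34754 gene IDs matched RefSeq. A gene took its brightest probe set, _x_at last, and needed a mean signal of 89.0. A call was 2-fold. The calculation was tested on simulated data, with Python 3.11.15, pandas 2.3.3 and numpy 2.4.6.

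Named genes were the targets, the 15 highest and lowest, the 8 farthest outside the other arrays each way, the 5 such for WT, those with several probe sets past 2-fold and the 3 highest and lowest of each of 56 lists. Members and lists were chosen with earlier results of these data known, and genes named beyond this rule after their values were seen. Alternatives were the pseudocount, the filter, quantile normalization, averaged probe sets and other comparison arrays.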

Additional observations from a re-analysis of the deposited data

How the results depend on the processing

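No paired analysis was possible because each genotype has 1 array and the labels give no replicate numbers. Counts depended on how dim signals were treated. For probe sets 2-fold higher and lower, a pseudocount of 1 gave 3144 and 3362, a pseudocount of 89.4 gave 34 and 108, and only probe sets above the median signal gave 88 and 192. For genes, higher and lower, the same pseudocounts gave 78 and 120, and 13 and 42. No filter gave 201 and 189, a filter at 297.5 gave 15 and 24, and the mean over probe sets gave 25 higher. Against the mean of WT and both single receptor knockouts 13 were higher, and against the median of the other 5 arrays 8 were higher and 43 lower. For genes with the double knockout 2-fold outside all other arrays, a pseudocount of 1 gave 12 below, one of 89.4 gave 1 above and 0 below, no filter gave 6 above and 9 below, and leaving the Reln or the Dab1 knockout array out of the range gave 8 or 10 below. Against the median of the other 5 arrays Cd33 was at -0.01. Settings that filter add or remove genes by construction, and otherwise the cause was not tested. The granule cell median stayed below 0 in every alternative run, at -1.35 to -0.90. Quantile normalization gave 518 probe sets higher and 595 lower, and 49 genes higher and 65 lower. Over all lists and alternatives, 63 medians moved by more than 1 SD of the list's mean level over the other 4 arrays and 365 did not, including the reactive astrocyte median without Serpina3n, which was added after seeing the data. The number of arrays limits every value, since neither array has a replicate, and at signals near the bacterial controls only bounds can be had.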
